A study of Rattus norvegicus with 12 samples.

Results

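The myosin heavy and light chains of the heart and their binding protein were followed in left ventricular RNA of rats with a myocardial infarction and of sham-operated rats. The 8 genes were chosen by name from the 30560 genes listed: the heavy chains Myh6, Myh7 and Myh7b, the light chains Myl2, Myl3, Myl4 and Myl7, and Mybpc3, which encodes cardiac myosin-binding protein C. All 8 had at least 10 reads over the 12 rats and were tested.

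The thick filament of the sarcomere is a bundle of myosin molecules, each made of a pair of heavy chains, which hydrolyse ATP and pull on actin, and of essential and regulatory light chains bound to the neck of each head. Alpha-myosin heavy chain (Myh6) is the faster ATPase and prevails in the adult rodent ventricle. Beta-myosin heavy chain (Myh7) is slower and more economical, prevails in the fetal ventricle and returns in the overloaded or hypothyroid rodent heart.

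Male Wistar rats, 7 weeks old at surgery, formed 3 groups of 4 rats, with 1 library per rat. Sham rats had sham surgery and vehicle (carboxymethylcellulose). MI rats had the left anterior descending coronary artery ligated and received vehicle. MI + UA rats had the same ligation and received urolithin A (UA), a compound that gut microbes make from ellagitannins, with dosing by gavage for 8 weeks in all groups. Atria were removed, and RNA came from formalin-fixed, paraffin-embedded sections of the middle region of the ventricle, so a section could hold scar as well as muscle. The label of rat 66 puts it in MI + UA, but the study's echocardiography table has it among MI rats on vehicle. It was kept in MI + UA, and the values with it in MI are given where they changed a call or an unadjusted permutation p crossed 0.05.

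Reads on genes numbered 6228706 to 8958828 in Sham, 6829591 to 12743184 in MI and 6819444 to 19031695 in MI + UA. The 13 mitochondrially encoded genes took 50.2% to 58.6% of them and the 8 thick filament genes 0.828% to 1.13%. Levels are given as CPM, a gene's reads relative to the TMM-scaled library size. They depend on transcript length, so they are compared between rats and not between genes. Lists of cell type markers moved with the infarction. Of 14 cardiomyocyte markers tested, none of them a thick filament gene, 10 were lower and 0 higher in MI than in Sham, and their summed level was 19818 to 23186 CPM in Sham, 15500 to 17496 in MI and 15579 to 18507 in MI + UA. The 10 fibroblast markers summed to 1197 to 1499 CPM in Sham, 2327 to 4032 in MI and 2395 to 4142 in MI + UA, and 8 of them were higher in MI than in Sham. The 10 macrophage markers summed to 180 to 211, 336 to 487 and 285 to 515 CPM, and 9 were higher. In such bulk samples, fewer cardiomyocytes and less of an RNA per cardiomyocyte cannot be told apart.

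Each of the 3 heavy chain genes also holds microRNA sequence within its span. The strands below are shown so that their seeds, the bases that pair with target RNAs, can be compared between the host genes. The mature sequences are from RefSeq (build GRCr8), printed 5′ to 3′ with the seed, bases 2 to 8, in capitals.
rno-miR-208a-3p, within Myh6 (chr15:32395568-32395585, minus strand): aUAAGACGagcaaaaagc
rno-miR-208b-3p, within Myh7 (chr15:32421648-32421665, minus strand): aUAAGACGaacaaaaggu
rno-miR-499-5p, within Myh7b (chr3:164570616-164570636, plus strand): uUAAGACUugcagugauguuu
The miR-208a and miR-208b strands have the same seed, and that of miR-499 is not identical to it. The libraries measured long RNA, so they hold no value for the mature microRNAs.

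Myh6 fell in MI, with no overlap between the groups. The Sham rats 12, 17, 32 and 38 had 5974, 4708, 6185 and 6590 CPM of Myh6 (ENSRNOG00000025757), and the MI rats 36, 57, 61 and 89 had 2652, 2429, 2858 and 3148 CPM. The MI + UA rats 29, 58, 64 and 66 had 3526, 3274, 3481 and 4223 CPM. By the labels, each MI + UA rat lay above every MI rat and below every Sham rat. Moving rat 66, the highest of its group, to MI made these groups overlap. MI versus Sham gave a log2 fold change of -1.08 (SE 0.11, edgeR quasi-likelihood test with Benjamini-Hochberg adjustment over 18182 genes, adjusted p = 1.98e-06), to 0.473 times the Sham level. For MI + UA versus MI it was 0.39 (SE 0.11), with an unadjusted p of 0.00168 and an edgeR adjusted p of 1.00, and with rat 66 counted in MI it was 0.16 (edgeR adjusted p = 1.00). Against Sham, Myh6 was still lower in MI + UA, with a log2 fold change of -0.69 (SE 0.11, edgeR adjusted p = 0.000316).

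Myh7 rose in MI, less evenly. Its levels (ENSRNOG00000016983) were 1341, 3691, 1978 and 2048 CPM in Sham rats 12, 17, 32 and 38, and 4243, 4193, 2702 and 3435 CPM in MI rats 36, 57, 61 and 89. The MI + UA rats 29, 58, 64 and 66 had 3094, 2183, 2595 and 2841 CPM. Sham rat 17, with the lowest Myh6 of its group, stood among the MI rats in Myh7 and was why the groups overlapped. Its cardiomyocyte markers summed to 20862 CPM, within the range of the other Sham rats, and its fibroblast markers to 1499 CPM, the highest of Sham and below every MI rat. The log2 fold change of Myh7 in MI versus Sham was 0.69 (SE 0.21, edgeR adjusted p = 0.0350). This call was lost with DESeq2 (adjusted p = 0.110), with rat 66 counted in MI (edgeR adjusted p = 0.0521) and in each of the 6 edgeR fits without Sham rat 12, 32 or 38 or MI rat 36, 57 or 89 (log2 fold change 0.50 to 0.71). Without Sham rat 17 it was 1.03 (edgeR adjusted p = 0.000565). Between MI + UA and MI its log2 fold change was -0.44 (SE 0.21, unadjusted p = 0.0431, edgeR adjusted p = 1.00) with overlapping groups. In MI + UA versus Sham it was 0.24 (SE 0.21, edgeR adjusted p = 0.552) and ran from 0.06 without Sham rat 12 (edgeR adjusted p = 0.909) to 0.58 without Sham rat 17 (edgeR adjusted p = 0.0316).

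**Figure D1:**
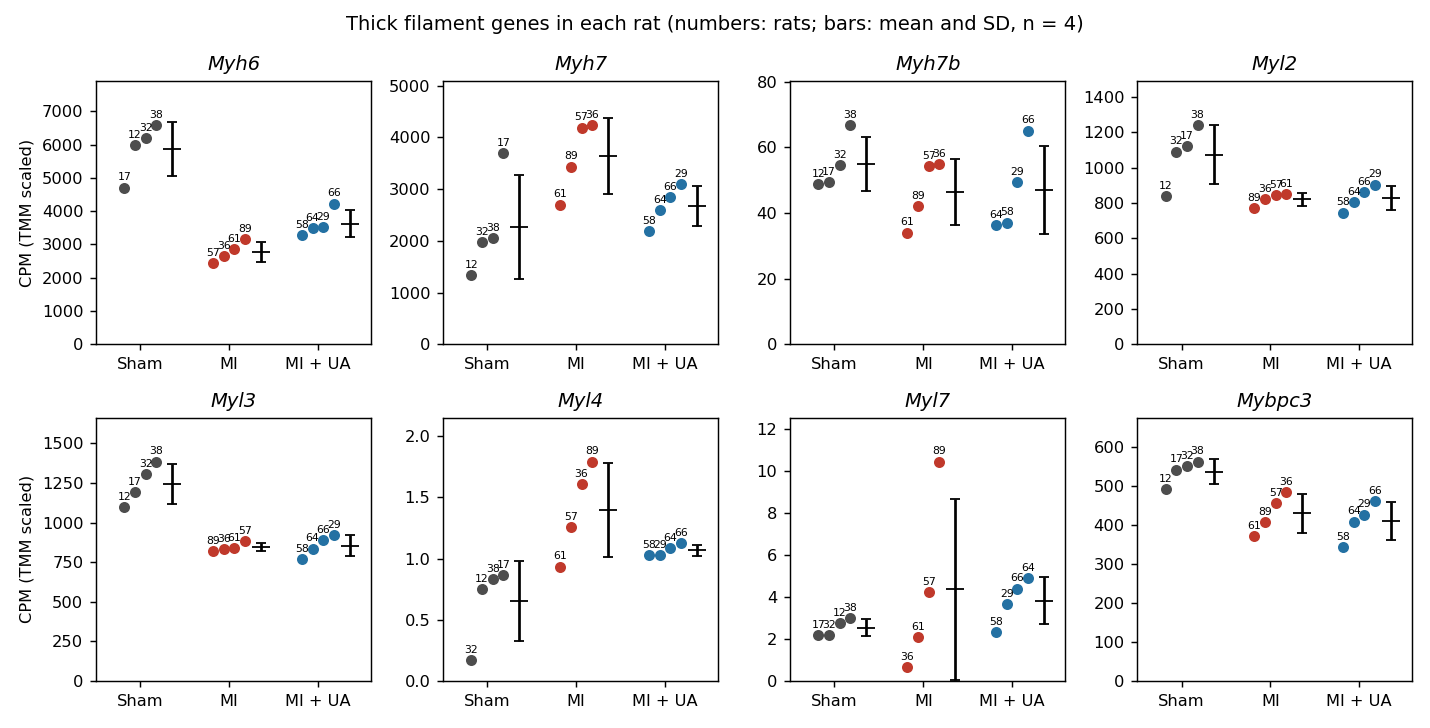
Levels of the 8 thick filament genes (CPM after TMM scaling, linear axes from 0) in each of the 12 rats, 1 panel per gene, with points numbered by rat and black bars for the mean and SD of the 4 rats of a group. In Myh6 the 3 groups lie apart, with MI + UA (3274 to 4223 CPM) between MI (2429 to 3148) and Sham (4708 to 6590), while in Myh7 Sham rat 17 (3691 CPM) lies among the MI rats.

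The ratio of Myh7 to Myh6 reads was then taken within each rat, where library size drops out. It was 0.225, 0.784, 0.320 and 0.311 in Sham rats 12, 17, 32 and 38, and 1.60, 1.73, 0.945 and 1.09 in MI rats 36, 57, 61 and 89. In MI + UA rats 29, 58, 64 and 66 it was 0.877, 0.667, 0.746 and 0.673. Every MI rat was above every Sham and every MI + UA rat, and the MI + UA rats were closer together (SD 0.0980) than those of Sham (SD 0.253) or MI (SD 0.381). The group means were 0.410 ± 0.253 in Sham, 1.34 ± 0.381 in MI and 0.741 ± 0.0980 in MI + UA (SD, n = 4).

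On the log2 scale the ratio was higher in MI than in Sham by 1.84 (SE 0.44), or 3.57-fold, with 16 of 16 pairs of rats higher. A two-sided exact permutation test gave p = 0.0286, and no smaller value is possible with 4 rats per group. It was lower in MI + UA than in MI by a difference of -0.82 (SE 0.23), or 0.567-fold, with 0 of 16 pairs higher (exact permutation p = 0.0286). MI + UA was above Sham by 1.02 (SE 0.40), with 13 of 16 pairs higher, and the exact permutation p was 0.114. These were 3 of 24 tests, 8 ratios in 3 comparisons, and the adjusted permutation p values were 0.137, 0.137 and 0.343, so none passed the 0.05 threshold after adjustment. With rat 66 counted in MI, the difference between MI + UA and MI was -0.59 and the exact permutation p 0.143. Leaving out 1 rat at a time, it stayed between -0.97 and -0.68, where 3 rats against 4 cannot give a p under 0.0571. Both comparisons use the same 4 MI rats, so the rise with infarction and the difference with UA are not independent observations.

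As a share, Myh7 made up 18.3%, 43.9%, 24.2% and 23.7% of the Myh6 and Myh7 reads in Sham rats 12, 17, 32 and 38. In MI rats 36, 57, 61 and 89 the share was 61.5%, 63.3%, 48.6% and 52.2%, and in MI + UA rats 29, 58, 64 and 66 it was 46.7%, 40.0%, 42.7% and 40.2%. Counting error was small beside these gaps: the exact 95% binomial interval of the least deeply sequenced of these sums, that of MI rat 57 with 42227 reads, ran from 62.9% to 63.8%. Intervals of this kind cover counting error only. The group means were 27.6% ± 11.2 in Sham, 56.4% ± 7.14 in MI and 42.4% ± 3.13 in MI + UA (SD, n = 4). Myh6 and Myh7 are neighbours with near-identical coding sequences, and reads that fit both are dropped by default in such counting, so the share rests on the reads that could be told apart and is not a share of molecules or of protein.

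**Figure D2:**
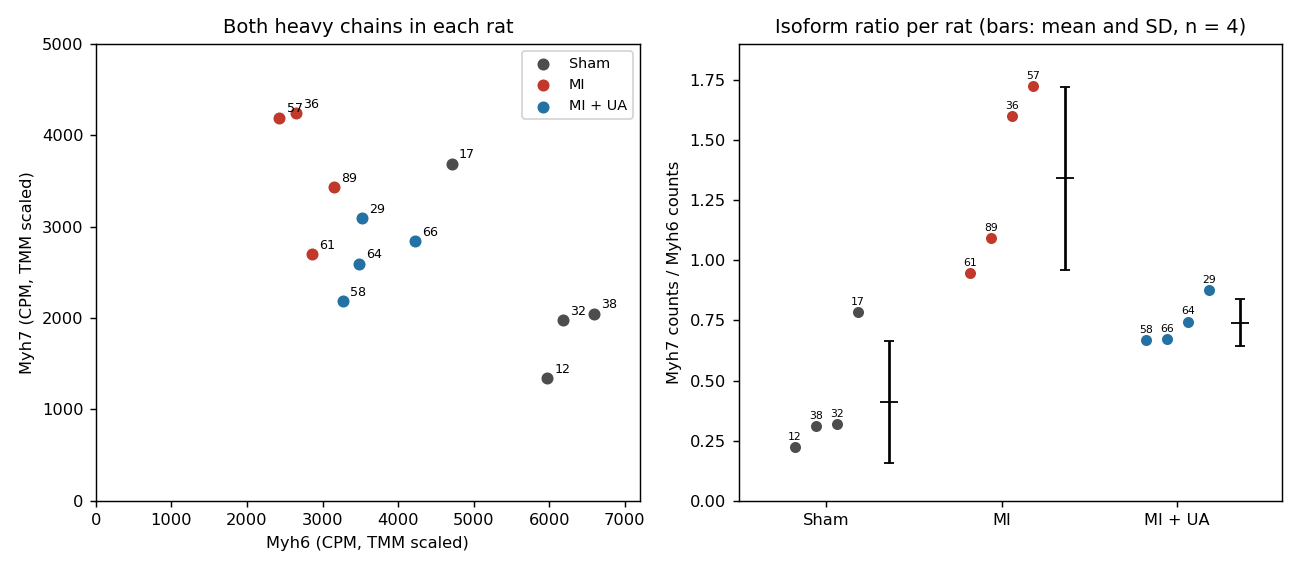
Left, Myh7 against Myh6 (CPM after TMM scaling) in each rat, coloured by group and numbered by rat. Right, the ratio of Myh7 to Myh6 reads in each rat, with the mean and SD of the 4 rats of a group. The MI rats (0.945 to 1.73) lie above all Sham (0.225 to 0.784) and all MI + UA rats (0.667 to 0.877), and Sham rat 17 lies within the MI + UA range.

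The sum of both heavy chains did not follow their ratio. Myh6 and Myh7 together stood at 8129 ± 576 CPM in Sham, 6415 ± 587 in MI and 6304 ± 694 in MI + UA (SD, n = 4), with ranges of 7315 to 8639, 5560 to 6895 and 5457 to 7064 CPM. The MI and MI + UA rats therefore shared a range of the sum while their ratios did not overlap. Set against 5 thin filament genes (Actc1, Tnnt2, Tnni3, Tnnc1 and Tpm1, which encode actin, the troponin subunits and tropomyosin), the sum was 1.12 ± 0.0544 times their reads in Sham, 1.13 ± 0.142 in MI and 1.06 ± 0.0533 in MI + UA (SD, n = 4). The log2 difference between MI and Sham had an SE of 0.098 with 8 of 16 pairs higher (exact permutation p = 1), and that between MI + UA and MI was -0.09 (SE 0.099, exact permutation p = 0.4). Of the thin filament genes, 4 of 5 fell in MI versus Sham in edgeR's test, with log2 fold changes of -0.67 for Tnni3, -0.50 for Tpm1, -0.46 for Tnnc1 and -0.37 for Tnnt2. Actc1 had -0.23 and an edgeR adjusted p of 0.166.

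Myh7b, the heavy chain gene that hosts miR-499 and whose RNA in the mammalian heart is largely spliced to a form without a full-length protein, did not pass the test in any comparison. Its level (ENSRNOG00000018997) was 48.9 to 66.9 CPM in Sham, 34.0 to 55.0 in MI and 36.4 to 65.2 in MI + UA. The log2 fold changes were -0.25 (SE 0.17) in MI versus Sham, 0.04 (SE 0.17) in MI + UA versus MI and -0.21 (SE 0.17) in MI + UA versus Sham, with edgeR adjusted p values of 0.410, 1.00 and 0.529. These small values moved with single rats: MI versus Sham ran from -0.35 without MI rat 36 to -0.13 without MI rat 61, and MI + UA versus Sham from -0.41 without rat 66 to -0.10 without Sham rat 38. Counting rat 66 in MI gave -0.13 and -0.41, again with no call in edgeR. Relative to Myh6 plus Myh7 its log2 ratio differed by 0.08 (SE 0.13), 0.03 (SE 0.17) and 0.12 (SE 0.15) in the same comparisons, with 8 to 11 of 16 pairs higher (exact permutation p from 0.486 to 0.886).

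The annotation lists a gene row for the hairpin of miR-208b, the microRNA within Myh7. Its reads in Sham rats 12, 17, 32 and 38 were 11, 20, 9 and 26, in MI rats 36, 57, 61 and 89 they were 24, 12, 7 and 8, and in MI + UA rats 29, 58, 64 and 66 they were 27, 1, 8 and 31. The log2 fold change of Mir208b in MI versus Sham was -0.86 (SE 0.47, edgeR adjusted p = 0.281), with overlapping groups, where the host gene had 0.69. These few reads, 184 over 12 libraries, come from RNA that covers the hairpin and not from the mature strand printed above. The row of Mir499a had 0 reads in every library.

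The ventricular light chains fell in MI. Myl3 (ENSRNOG00000020955), the essential light chain of the ventricle, stood at 1096, 1194, 1306 and 1385 CPM in Sham rats 12, 17, 32 and 38, and at 834, 882, 841 and 822 CPM in MI rats 36, 57, 61 and 89. In MI + UA rats 29, 58, 64 and 66 it was 923, 770, 836 and 888 CPM. All rats with an infarct lay below all Sham rats, and the 2 infarct groups overlapped. EdgeR gave a log2 fold change of -0.56 (SE 0.08, edgeR adjusted p = 0.000160) in MI versus Sham, 0.02 (SE 0.08, edgeR adjusted p = 1.00) in MI + UA versus MI and -0.54 (SE 0.08, edgeR adjusted p = 0.000307) in MI + UA versus Sham. Both calls against Sham held in all 12 fits that left out 1 rat.

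Myl2 (ENSRNOG00000030848), the regulatory light chain of the ventricle, had 841, 1120, 1091 and 1242 CPM in Sham rats 12, 17, 32 and 38, and 821, 845, 852 and 770 CPM in MI rats 36, 57, 61 and 89. The MI + UA rats 29, 58, 64 and 66 had 904, 745, 804 and 862 CPM. Sham rat 12 lay within the range of the infarct groups, and the other 3 Sham rats lay above it. Myl2 had a log2 fold change of -0.39 (SE 0.10, edgeR adjusted p = 0.0135) in MI versus Sham and 0.01 (SE 0.10, edgeR adjusted p = 1.00) in MI + UA versus MI. Without Sham rat 38 the first call was lost (edgeR adjusted p = 0.0699). In MI + UA versus Sham it was -0.37 (SE 0.10, edgeR adjusted p = 0.0192), a call that 5 of the 12 fits without 1 rat did not make: those without Sham rat 17, 32 or 38 or MI + UA rat 58 or 64.

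The light chains were also set against the heavy chain sum, where no difference passed after adjustment over the 24 tests. The log2 ratio of Myl2 to Myh6 plus Myh7 differed by -0.03 (SE 0.11, exact permutation p = 0.83) in MI versus Sham and by 0.01 (SE 0.078, exact permutation p = 0.943) in MI + UA versus Sham. That of Myl3 differed by -0.21 in MI versus Sham (SE 0.082, exact permutation p = 0.0857, adjusted 0.294), with 2 of 16 pairs higher and overlapping groups. In MI + UA versus Sham it differed by -0.17 (SE 0.056, exact permutation p = 0.0286, adjusted 0.137), with 0 of 16 pairs higher. With rat 66 counted in MI these differences were -0.23 (exact permutation p = 0.0476) and -0.13 (exact permutation p = 0.0571). Both log2 ratios differed between MI + UA and MI by 0.04 (SE 0.097 for Myl2 and 0.081 for Myl3).

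Myl4 and Myl7, the essential and regulatory light chains of the atrium, had few reads in these ventricles. Myl4 (ENSRNOG00000050675) had 6, 6, 1 and 7 reads in Sham rats 12, 17, 32 and 38, and 22, 8, 9 and 22 reads in MI rats 36, 57, 61 and 89. The MI + UA rats 29, 58, 64 and 66 had 18, 8, 8 and 20 reads. Scaled to CPM, each Sham rat (0.168 to 0.866) was below each MI (0.934 to 1.79) and MI + UA rat (1.03 to 1.13). The log2 fold change of Myl4 was 1.06 (SE 0.41, edgeR adjusted p = 0.108) in MI versus Sham, -0.41 (SE 0.36, edgeR adjusted p = 1.00) in MI + UA versus MI and 0.65 (SE 0.42, edgeR adjusted p = 0.396) in MI + UA versus Sham, so no call was made. Without Sham rat 32 the last of these was 0.38, and without MI rat 89 the value between MI + UA and MI was -0.26. The log2 ratio of Myl4 to Myl3 was higher by 1.68 (SE 0.52) in MI and by 1.33 (SE 0.48) in MI + UA than in Sham, in 16 of 16 pairs each (exact permutation p = 0.0286, adjusted 0.137). The direction held without Sham rat 32, which had 1 read, with differences of 1.21 and 0.85. With rat 66 counted in MI the difference between MI + UA and Sham was 1.33 (exact permutation p = 0.0571, the lowest possible with 3 rats against 4).

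Myl7 (ENSRNOG00000014409) varied more within MI than between groups. It had 22, 15, 13 and 25 reads in Sham rats 12, 17, 32 and 38, 9, 27, 20 and 128 reads in MI rats 36, 57, 61 and 89, and 64, 18, 36 and 78 reads in MI + UA rats 29, 58, 64 and 66. MI rat 89 held 10.4 CPM of Myl7 and MI rat 36 0.658 CPM, the highest and lowest of all 12 rats. The log2 fold change was 0.78 (SE 0.51, edgeR adjusted p = 0.394) in MI versus Sham and turned to -0.29 without rat 89. For MI + UA versus MI it was -0.19 (SE 0.46), and 0.87 without rat 89 (edgeR adjusted p = 1.00 in both). Against Sham, MI + UA had a log2 fold change of 0.59 (SE 0.52, edgeR adjusted p = 0.568). The log2 ratio of Myl7 to Myl2 differed by 0.53 (SE 0.86) in MI versus Sham, by 0.37 (SE 0.87) in MI + UA versus MI and by 0.90 (SE 0.27) in MI + UA versus Sham. The exact permutation p values were 0.571, 0.657 and 0.0571, and 0.876, 0.876 and 0.229 after adjustment over the 24 tests. With 1 rat left out at a time, the first difference ran from -0.13 to 1.21 and the second from -0.31 to 1.03.

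The other atrial markers ranged widely. Sln, which encodes the calcium pump regulator sarcolipin, had 39 reads over the 12 libraries, Bmp10 60 and Mybphl 2, while Kcnj3 had 7786, Gja5 1317 and Kcna5 1008. Of 7 atrial markers tested, 1 fell in MI (Kcnj3, a potassium channel gene, log2 fold change -0.82, edgeR adjusted p = 8.77e-05) and 0 rose. The 7 summed to 102 to 114 CPM in Sham, 63.5 to 79.8 in MI and 69.6 to 98.5 in MI + UA, most of it Kcnj3. The part of atrial tissue in the Myl4 and Myl7 values was not tested.

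Mybpc3 (ENSRNOG00000012307), whose protein binds the thick filament and restrains the myosin heads, fell in MI. It had 491, 541, 551 and 562 CPM in Sham rats 12, 17, 32 and 38, and 484, 456, 371 and 406 CPM in MI rats 36, 57, 61 and 89. The MI + UA rats 29, 58, 64 and 66 had 426, 343, 408 and 460 CPM. The infarct groups overlapped each other and lay below Sham, MI rat 36 and Sham rat 12 being separated by less than the spread within either group. Its log2 fold change was -0.32 (SE 0.10, edgeR adjusted p = 0.0351) in MI versus Sham, a call lost in 6 of the 12 fits without 1 rat: those without Sham rat 17, 32 or 38, MI rat 61 or 89, or MI + UA rat 29. It was -0.07 (SE 0.10, edgeR adjusted p = 1.00) in MI + UA versus MI and -0.39 (SE 0.10, edgeR adjusted p = 0.0126) in MI + UA versus Sham. Its reads followed the heavy chain sum closely: the ratio of Mybpc3 to Myh6 plus Myh7 was 0.0660 ± 0.00151 in Sham, 0.0669 ± 0.00370 in MI and 0.0649 ± 0.00175 in MI + UA (SD, n = 4), with log2 differences of 0.02 (SE 0.044), -0.04 (SE 0.045) and -0.02 (SE 0.025) and exact permutation p values from 0.371 to 0.743.

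**Figure D3:**
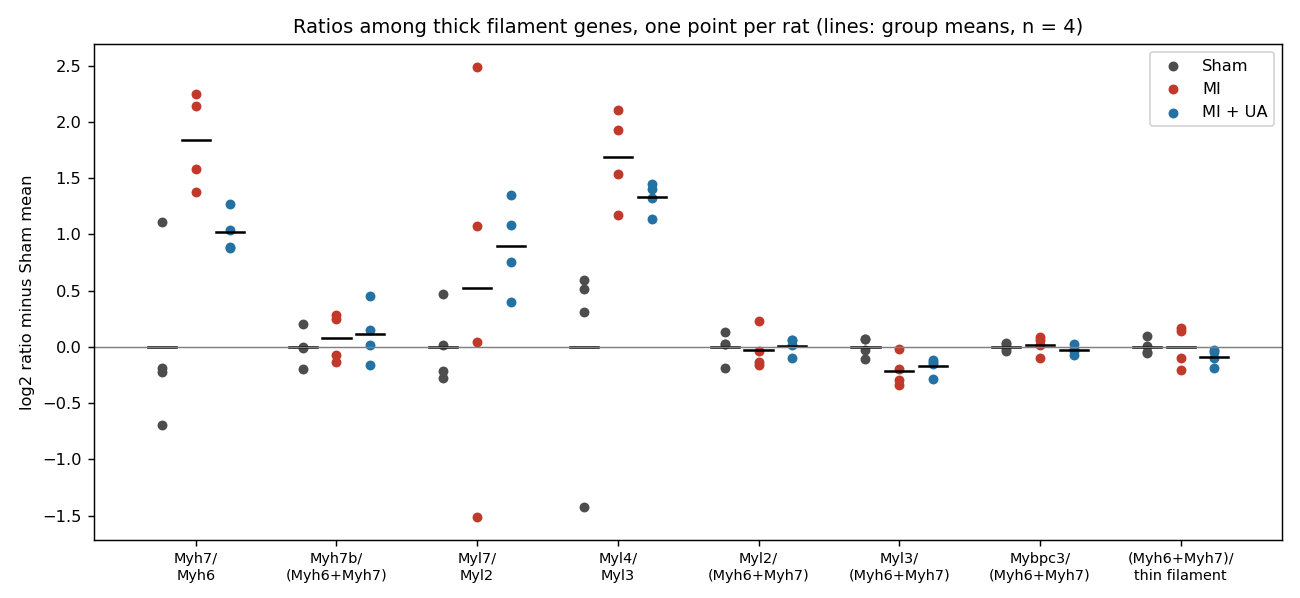
The 8 log2 ratios among thick filament genes, each minus its Sham mean, with 1 point per rat and black lines for group means (n = 4). The ratio of Myh7 to Myh6 rises by 1.84 in MI and by 1.02 in MI + UA, that of Myl4 to Myl3 by 1.68 and 1.33 with 1 Sham rat far below the others, and the ratios of Myl2, Mybpc3 and Myh7b to the heavy chain sum stay near 0 in all groups.

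Over the 8 genes, 5 passed an edgeR adjusted p of 0.05 in MI versus Sham, against 11.4% of all genes tested. The 4 that fell (Myh6, Myl3, Myl2 and Mybpc3) stand against 5.53% of genes called lower, and the 1 that rose (Myh7) against 5.82% called higher. At 4 of the 8 (Myh6, Myl3 and Mybpc3 lower and Myl4 higher in MI) the ranges of MI and Sham were apart, against 15.7% of all genes. The median log2 fold change of the 8 was -0.28, where that of all genes was 0.026. The medians of the 14 cardiomyocyte markers and of the 5 thin filament genes were lower, at -0.42 and -0.46. Leaving out 1 rat at a time gave 2 to 5 calls among the 8: 2 without Sham rat 38, and 3 without Sham rat 32 or MI rat 89. Myh6 and Myl3 passed in all 12 of these fits.

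In MI + UA versus MI, 0 of the 8 genes passed, as did 0.0% of all genes, in edgeR's test and in DESeq2. At an unadjusted edgeR p under 0.05 there were 2 (Myh6 and Myh7), against 3.79% of all genes, and the ranges were apart at 1 (Myh6), against 2.34%. The median over the 8 was -0.028. In MI + UA versus Sham 4 of the 8 were called, all lower (Myh6, Myl3, Mybpc3 and Myl2), against 9.44% of all genes in either direction and 4.27% lower. Again 4 did not overlap (Myh6, Myl3 and Mybpc3 lower, Myl4 higher), against 14.3%, and the median was -0.29. The 3 comparisons share their rats, so these counts are not independent of each other.

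**Figure D4:**
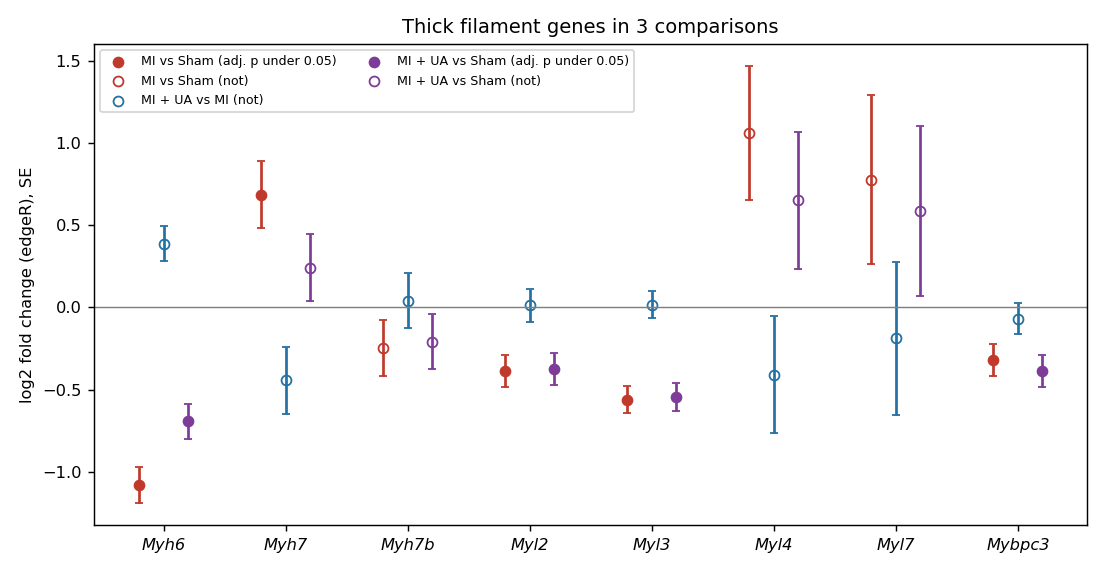
Log2 fold changes (edgeR, bars are 1 SE) of the 8 thick filament genes in MI versus Sham, MI + UA versus MI and MI + UA versus Sham, with filled points for an adjusted p under 0.05. Myh6 (-1.08, 0.39 and -0.69) and Myh7 (0.69, -0.44 and 0.24) move in opposite directions in each comparison, no point for MI + UA versus MI is filled, and the bars of Myl4 and Myl7 are the widest.

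Genes that work on the thick filament were read from lists, whose counts stand against the 11.4% of all genes called in MI versus Sham, 5.82% higher and 5.53% lower. Of the 6 genes of titin and the M-band, which hold the thick filament in register, 5 fell in MI and 0 rose, with a median log2 fold change of -0.42. Titin itself (Ttn) fell by 0.45 on the log2 scale and Obsl1, which encodes a cytoskeletal adaptor, by 0.43. Myom3, which encodes an M-band myomesin, fell most: its mean was 7.76 ± 0.868 CPM in Sham, 1.91 ± 0.799 in MI and 4.13 ± 1.37 in MI + UA (SD, n = 4), a log2 fold change of -2.0 (SE 0.27, edgeR adjusted p = 6.11e-05). With UA its log2 fold change against MI was 1.14 (SE 0.27) without overlap, at an unadjusted p of 0.000432 and an edgeR adjusted p of 1.00.

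Of 11 genes of myosin folding and turnover, 2 fell in MI and 0 rose (median -0.28): Unc45b, a myosin chaperone (-0.57), and Fbxo32, the ubiquitin ligase atrogin-1 (-0.49). Of 9 genes of light chain phosphorylation, 2 fell and 1 rose (median -0.11). Mylk3, the cardiac kinase of Myl2, fell from 197 ± 4.79 to 134 ± 8.62 CPM (SD, n = 4), a log2 fold change of -0.56 (SE 0.11, edgeR adjusted p = 0.00209), and stood at 147 ± 31.0 CPM in MI + UA. Prkaca, a catalytic subunit of protein kinase A, fell by 0.40 on the log2 scale, and Prkcd, a protein kinase C, rose by 0.52.

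Of 18 regulators linked to the choice of heavy chain, 3 fell and 2 rose in MI (median -0.09). Dio2, the deiodinase that makes active thyroid hormone in tissues, rose from 2.29 ± 1.11 to 9.05 ± 3.23 CPM (SD, n = 4), a log2 fold change of 1.99 (SE 0.29, edgeR adjusted p = 0.000105), and stood at 7.34 ± 1.43 CPM in MI + UA. Thrb, a thyroid hormone receptor gene, had a log2 fold change of -0.45 (edgeR adjusted p = 0.0102), while Thra had -0.31 (edgeR adjusted p = 0.0824). Thyroid hormone is known to raise Myh6 and lower Myh7 in the rodent heart. The orphan receptor gene Nr2f2, an atrial identity factor that other cell types of the heart also express, rose by 0.53, and the cardiac transcription factor gene Tbx5 fell by 0.38.

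Myosins of other cells and muscles were read the same way. Of 7 smooth muscle and nonmuscle myosin genes tested, 2 rose and 0 fell (median 0.38): the nonmuscle heavy chains Myh10 (0.63, edgeR adjusted p = 7.59e-05) and Myh9 (0.38, edgeR adjusted p = 0.0358). Of 7 other myosin genes tested, most of them of skeletal muscle, 1 fell and 0 rose, with a median of 1.05 and 2 of 7 negative. The call was Myh14 (-0.49), by its function a nonmuscle heavy chain. The median of 1.05 was the value of Myl1 (SE 0.38, edgeR adjusted p = 0.0861), whose groups overlapped. The genes above it, Myh2, Mybpc1 and Mybph, had 21, 11 and 19 reads over all libraries (SE 1.33, 1.38 and 0.94). The skeletal heavy chains Myh2, Myh4, Myh3 and Myh8 had 21, 6, 3 and 0 reads over all libraries. Of the remaining marker lists, 0 of 6 endothelial genes rose and 1 fell (Kdr, -0.50), 3 of 6 smooth muscle genes rose (Cnn1, Tagln and Acta2, 1.56, 1.02 and 0.56) and 1 fell (Des, -0.30), and 1 of 6 skeletal muscle genes rose (Tnnt3, 0.75). No gene of the lists named so far passed the threshold in MI + UA versus MI. The medians there lay between -0.28 for atrial markers and 0.07 for fibroblast markers, with -0.21 for smooth muscle (6 of 6 negative), -0.19 for skeletal muscle and -0.11 for the other myosins.

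**Figure D5:**
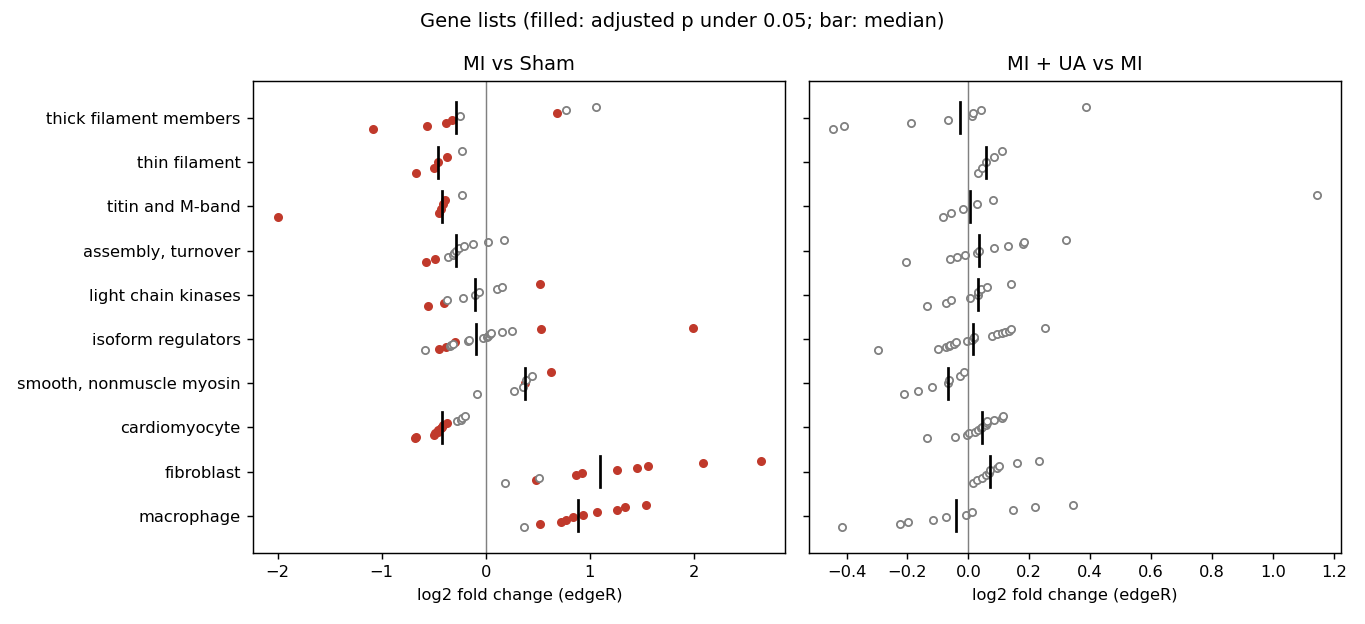
Log2 fold changes (edgeR) of the thick filament genes and most lists in MI versus Sham (left) and MI + UA versus MI (right, narrower axis). Each gene is 1 point, filled where the adjusted p is under 0.05, with a black bar at the list median. The other myosin, atrial, endothelial, smooth muscle and skeletal muscle lists are not shown. In MI versus Sham the medians run from -0.46 for the thin filament to 1.10 for fibroblast markers, and no point is filled on the right.

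The genes whose levels ran most like those of Myh6 over the 12 rats, among 10695 with an average log2 CPM of at least 1, were Cdh26, Rpl3l and Ech1, which encode a cadherin, a ribosomal protein of striated muscle and an enzyme of fatty acid oxidation. Likeness was the root mean square difference of log2 CPM after centring each gene on its Sham mean, 0.136, 0.188 and 0.201, beside 0.754 for a gene that stayed at its Sham mean. For Myh7 they were Chst1, Gadd45b and Prrg3 (0.220, 0.262 and 0.280, beside 0.595). Myl4 was nearest to Hjurp, Aldh1a2 and Naip5 (0.315, 0.331 and 0.340, beside 0.928). No gene ran close to Myl7, the nearest being Tead2 at 0.642 beside 0.904. The choice used the same rats, so the fold changes of these genes are no further likeness.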

How the data were processed

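RNA was extracted from formalin-fixed left ventricle of 12 rats. Libraries were strand-specific and depleted of ribosomal RNA per the study's methods, while the labels say polyA RNA. Per the submitters' processing notes the authors used STAR 2.6.1c, mRatBN7.2, HTSeq and MultiQC 1.8, and they deposited raw counts per Ensembl gene without normalization. The HTSeq version and strand setting are not given in the sources used here. Doses of UA differ between the sources and are left out. The 5 summary lines of the table (51.7% to 57.1% of its counts per library) stayed out of library sizes. A further MI + UA library is not analysed here. The study's methods say that its authors left an MI + UA sample out as a clear outlier in a principal component analysis of expression.

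The 18182 genes whose counts summed to 10 or more were tested with edgeR 4.0.16 (quasi-likelihood, TMM, 3 groups in one fit, Benjamini-Hochberg, threshold 0.05) in R 4.3.3. Fold changes are on the log2 scale. Log2 ratios of counts per rat (0.5 added to both) were compared by two-sided exact permutation tests over 70 groupings (Python 3.11.15, scipy 1.17.1). Replicates were separate rats, and the labels name no batch. Alternatives were DESeq2 1.42.0, its size factors, TMM without mitochondrially encoded genes, 2 other filters, 2 groups per fit, rat 66 in MI, other scales of the ratios, and each rat left out. In simulated counts for MI versus Sham over 17869 genes, changes were planted in 200 genes with many reads. The edgeR fit recovered 42% of changes of 0.5 and 95% of changes of 1 (log2), and called 11 unchanged genes. Genes with as few reads as Myl4 and Myl7 were not among the 200, so these percentages do not cover them.

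The members and gene lists were chosen with earlier results of these data known. Named genes were all members, the thin filament genes, Thra, Thrb, Mylk3, Myom3, up to 4 called genes per other list with the largest fold change in MI versus Sham, and the 3 genes most like Myh6, Myh7, Myl4 and Myl7. Genes named beside these (Sln, Bmp10, Mybphl, Gja5, Kcna5, Myh2, Myh3, Myh4, Myh8, Myl1, Mybpc1, Mybph) were added after their values were seen. The microRNA sequences are from RefSeq (GRCr8). All 8 members matched RefSeq symbols. Some genes of the lists are not reported here by name.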

Additional observations from a re-analysis of the deposited data

Results flagged for a closer look

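Among 48 groups of 4 rats examined (the log2 CPM of the 8 genes and the 8 log2 ratios in 3 groups), 2 had a rat far from the others, where chance flags about 1 in 20 groups, or 2.4. Both were the Myl4 reads of Sham rat 32. Its log2 CPM of Myl4 was the lowest of the Sham rats, with a gap of 0.903 of the group's range to the next rat. Its log2 ratio of Myl4 to Myl3 was the lowest too, with a gap of 0.860 of the range. Both rest on 1 read of Myl4 in that library, against 6, 6 and 7 in the other Sham rats. The Myh7 level and the Myh7 to Myh6 ratio of Sham rat 17, although the highest of Sham, stayed inside this limit.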

How the results depend on the processing

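Myh6 and Myl3 kept their direction and call against Sham under every alternative run. Counts of genes called were 1468 to 2182 in MI versus Sham and 1155 to 1895 in MI + UA versus Sham with each rat left out, and 0 to 1 in MI + UA versus MI, where the 1 gene came without MI rat 36. With no filter beyond 1 count, 3 genes were called in MI + UA versus MI. The number of members called in MI versus Sham was 2 to 5 with each rat left out. With rat 66 counted in MI, the Myh7 to Myh6 log2 ratio in MI + UA versus MI was -0.59 and its unadjusted p rose from 0.0286 to 0.143. The same choice turned the sign of fold changes near 0 in MI + UA versus MI, to -0.28 for Myh7b, -0.021 for Myl2 and -0.017 for Myl3, of the Myh7b log2 ratio to the heavy chain sum (-0.15), and of the heavy chain to thin filament log2 ratio in MI versus Sham (-0.0053). The Myl7 to Myl2 ratio in MI + UA versus MI differed by 0.37 on the log2 scale and by -0.00087 as a difference of mean linear ratios. Leaving out 1 rat also turned signs: Myl7 ran from -0.29 to 1.18 in MI versus Sham, and in MI + UA versus MI Myl7 ran from -0.59 to 0.87, Myh7b from -0.16 to 0.14, Myl2 from -0.036 to 0.059, Myl3 from -0.025 to 0.063 and Mybpc3 from -0.13 to 0.0067. Log2 ratios turned as well. That of Myl7 to Myl2 ran from -0.13 to 1.21 in MI versus Sham and from -0.31 to 1.03 in MI + UA versus MI. That of Myh7b to the heavy chain sum ran from -0.080 to 0.13 in MI + UA versus MI. The ratios of Myl2, Myl3 and Mybpc3 to that sum, and of that sum to the thin filament genes, also changed sign in at least 1 comparison. The cause of these turns was not tested. Myl4 and Myl7 had few reads, and 4 rats per group limit the ratio tests. No paired analysis was possible because each rat has its own number and stands in 1 group.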
